A study of Mus musculus with 18 samples.

Results

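MAP kinase phosphatases were followed in cultured mouse microglia, the brain's own macrophages. The 8 members are Dusp1, Dusp2, Dusp3, Dusp4, Dusp5, Dusp6, Dusp7 and Dusp16, found by gene symbol, 1 row each, among the 54532 genes of the deposited count table. All 8 passed the count filter that left 13267 genes for testing. Dusp5 was selected on its large difference in tau response between the genotypes, so its values in the groups that make up that difference are given as a description with no test. The other 7 were taken as members of the same gene family, with results of these data known.

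MAP kinases (ERK, JNK and p38) are switched on by phosphorylation of a threonine and a tyrosine in their activation loop. Dual-specificity phosphatases remove both phosphates and so switch the kinases off. Several of them are themselves transcribed when MAP kinases are active, which makes them feedback inhibitors, and in macrophages they limit the output of inflammatory signalling. TREM2, which binds lipids on the microglial surface, signals through the adaptor DAP12 and the kinase Syk, and Akt is one of the kinases downstream of it.

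RNA was sequenced in 18 libraries, 3 for each of 6 groups of primary microglia from pups of postnatal day 0 to 3, after 10 days in mixed culture. R47H/+ cells, labelled as carrying the hTrem2 R47H allele, were given MK-2206, an Akt inhibitor, at 1 uM together with 0N4R tau fibrils at 1 ug per ml, or MK-2206 alone, or tau fibrils alone, or neither. Trem2+/+ cells, labelled mTrem2 +/+, were given tau fibrils or none. Pre-treatment lasted 6 h in every group, with DMSO at 0.01% where no MK-2206 was used. The labels do not state a DMSO share for the MK-2206 groups, how long tau was left on the cells, whether pups were pooled, or whether the 3 libraries of a group were separate cultures, so p-values reflect no more than the spread among these libraries, which may be technical.

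Library totals lay between 16288531 and 20686299 counts. Trem2 averaged 465 ± 21.2 CPM (counts scaled to a common library size) in R47H/+ cells and 1258 ± 551 CPM in Trem2+/+ cells (SD, n = 3 each), and it was lower with tau in all 3 cell conditions. The Trem2+/+ values were 945, 935 and 1894 CPM, the last in replicate 3. That library also had a gene-length shift, given below, and whether the shift bears on its Trem2 value was not tested. These counts are of the mouse gene, and whether reads from the labelled hTrem2 allele were counted is not given. A pair of libraries, here called length-shifted, had low values for long genes relative to their group: per 10-fold increase in gene length, log2 CPM changed by -1.27 in Trem2+/+ replicate 3 and by -0.60 in replicate 2 of R47H/+ with tau. The remaining 16 lay between -0.10 and 0.19. Of 10 microglial markers, Csf1r and Cx3cr1 were well expressed, whereas Tmem119 had group means of at most 1.57 CPM and Siglech of at most 0.111 CPM, and the group means of Aif1 ranged over 58.5 to 507 CPM. The summed CPM of the 10 also differed between groups, in opposite directions with tau in the genotypes. It was 3892 to 3929 in R47H/+ cells with MK-2206 and tau, 3058 to 3257 with MK-2206, 3405 to 3530 with tau and 3801 to 3888 with neither, against 3556 to 3639 in Trem2+/+ cells with tau and 2715 to 3280 in Trem2+/+ cells. Mrc1, a marker of border macrophages, had group means between 195 and 522 CPM. The summed CPM of 12 fibroblast and vascular markers moved with tau and genotype. It was 100 to 107 in R47H/+ cells with MK-2206 and tau, 32.1 to 35.2 with MK-2206, 59.5 to 98.6 with tau and 27.1 to 34.8 with neither, against 42.3 to 47.8 in Trem2+/+ cells with tau and 6.41 to 14.1 in Trem2+/+ cells. Most of it was Kdr, while Cldn5 and Rgs5 had no count in any library and Col1a1 did not exceed a group mean of 0.700 CPM. The sum over 10 astrocyte markers was 95.1 to 107 CPM with MK-2206 and tau, 54.9 to 71.1 with MK-2206, 79.7 to 104 in R47H/+ cells with tau, 66.8 to 70.3 in R47H/+ cells, 92.6 to 102 in Trem2+/+ cells with tau and 62.0 to 107 in Trem2+/+ cells. Aldh1l1 was the largest part of this sum, with group means of 27.2 to 85.8 CPM, while Gfap did not exceed 1.09 CPM. The sum over 11 oligodendrocyte-lineage markers was 272 to 308 CPM in the tau groups and 221 to 262 CPM in the groups without tau. Cnp and Mbp were the largest parts of this sum, with group means of 63.4 to 199 and 57.7 to 122 CPM. Cnp thus ranged more widely than the sum, so the listed genes did not all move alike. Mog, Olig2 and Sox10 did not exceed group means of 1.21, 1.62 and 1.57 CPM. The sum over 11 border macrophage, monocyte and granulocyte markers was higher in Trem2+/+ than in R47H/+ cells, both with tau and without. It was 570 to 623 CPM with MK-2206 and tau and 735 to 746 with MK-2206. In R47H/+ cells it was 538 to 652 with tau and 652 to 721 with neither. In Trem2+/+ cells it was 709 to 760 with tau and 775 to 1328 without. Mrc1, Pf4 and Ly6c2 were the largest parts of this sum. Group means were 166 to 463 CPM for Pf4 and 4.01 to 177 CPM for Ly6c2. Cd163 did not exceed a group mean of 0.659 CPM, and S100a9 and Ly6g had no count in any library. The sum over 10 neuronal markers did not exceed 5.13 CPM in any library. The part of these marker changes in the results was not tested. In bulk RNA, fewer cells of a type and less RNA per cell cannot be told apart.

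Per gene length, Dusp5, the member selected on its response, was among the less abundant. Mean RPKM over the 18 libraries, which is CPM per kilobase of gene length, was 30.8 for Dusp3, 29.0 for Dusp7 and 13.9 for Dusp6. Dusp1 followed with 5.61 RPKM. Dusp5, Dusp2, Dusp16 and Dusp4 had 1.84, 1.66, 1.47 and 1.18 RPKM, and the ranges of these last 4 overlapped widely. Dusp3 and Dusp7 also overlapped over the 18 libraries, with 16.4 to 46.6 RPKM and 14.9 to 38.8 RPKM. Dusp3 and Dusp7 thus made up 36.0% and 33.9% of the summed level of the 8 genes, and Dusp5 2.15%. The counts behind the low members were small: Dusp2 had 17 to 156 counts a library, Dusp4 12 to 115 and Dusp5 43 to 171.

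**Figure D1:**
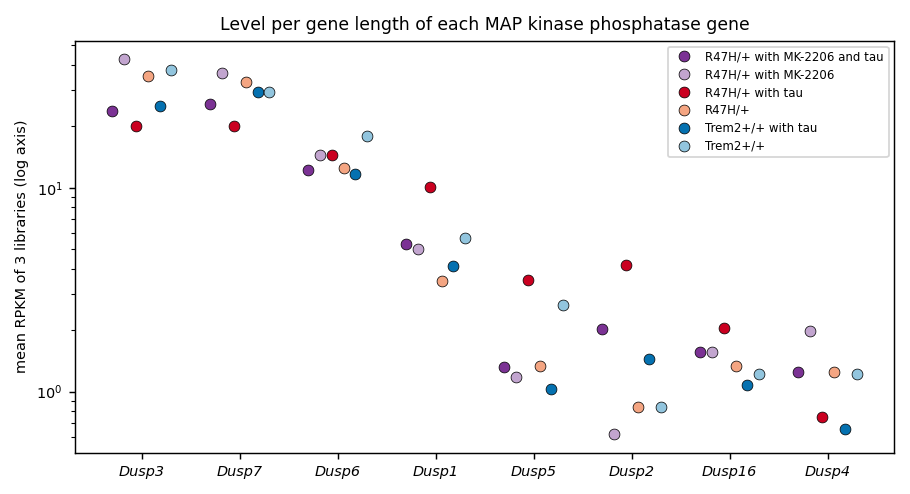
Mean RPKM of 3 libraries for each of the 8 genes (log axis), 1 point per group, with genes ordered by their mean over all 18 libraries. Dusp3 and Dusp7 lie highest, at a mean of 30.8 and 29.0 RPKM, and Dusp4 lowest, at 1.18 RPKM.

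The promoters of Dusp5, Dusp1 and Dusp2 are shown, the 3 genes with the largest positive difference in tau response between the genotypes among the 8 members. Each had its highest group mean in R47H/+ cells with tau, as did Dusp16. Each window holds 250 bases before and 50 bases from the RefSeq start (GRCm38.p6), read 5′ to 3′ on the gene's strand. Capitals mark matches on either strand to the cAMP response element TGACGTCA, its shorter core TGACG, the AP-1 site TGANTCA and the CArG box, the core that binds serum response factor. The windows lie at chr19:53528895-53529194 (plus strand) for Dusp5, chr17:26508423-26508722 (minus strand) for Dusp1 and chr2:127335909-127336208 (plus strand) for Dusp2.
Dusp5: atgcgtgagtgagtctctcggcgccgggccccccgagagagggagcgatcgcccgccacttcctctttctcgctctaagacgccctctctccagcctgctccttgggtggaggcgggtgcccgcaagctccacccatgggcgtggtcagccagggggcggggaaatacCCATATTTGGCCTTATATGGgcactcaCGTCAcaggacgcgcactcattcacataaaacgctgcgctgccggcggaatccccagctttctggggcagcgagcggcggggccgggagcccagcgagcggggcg
Dusp1: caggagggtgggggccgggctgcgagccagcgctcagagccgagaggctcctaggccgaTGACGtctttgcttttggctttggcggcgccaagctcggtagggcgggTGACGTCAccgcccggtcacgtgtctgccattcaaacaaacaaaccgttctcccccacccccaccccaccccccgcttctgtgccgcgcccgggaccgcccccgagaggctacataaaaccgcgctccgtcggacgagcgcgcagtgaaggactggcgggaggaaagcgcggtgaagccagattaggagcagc
Dusp2: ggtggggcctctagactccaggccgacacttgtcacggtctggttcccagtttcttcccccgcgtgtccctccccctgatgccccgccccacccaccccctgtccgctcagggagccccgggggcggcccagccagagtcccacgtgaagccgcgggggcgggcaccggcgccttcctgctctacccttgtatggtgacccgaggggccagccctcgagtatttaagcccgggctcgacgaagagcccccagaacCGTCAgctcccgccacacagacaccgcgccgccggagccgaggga
Dusp5 had 2 adjoining CArG boxes, starting 82 and 72 bases before the start, and a TGACG core 55 bases before it. Dusp1 had a full cAMP response element 143 bases before the start, which holds 2 overlapping cores (143 and 140 bases before), and a further core 191 bases before. Dusp2 had a TGACG core just after the start and no other match. Of 32851 promoter windows of this length, 1.63% held a CArG box, 1.79% a full element, 20.8% a TGACG core and 7.81% the AP-1 site. Among the other members with a window, Dusp16 had a TGACG core 70 bases before its start, and Dusp3, Dusp6 and Dusp7 had no match to any of the 4 motifs. These are matches of letters only, and binding was not measured.

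Dusp5 (ENSMUSG00000034765, chr19:53529109-53542431, plus strand, GRCm38) encodes a nuclear phosphatase that acts on ERK and holds it in the nucleus. Its level was highest in R47H/+ cells with tau and in Trem2+/+ cells without tau. In R47H/+ cells it was at 2.73, 3.56 and 3.52 CPM with MK-2206 and tau, and at 2.74, 3.24 and 2.75 CPM with MK-2206 alone. In R47H/+ cells without MK-2206 it was at 8.76, 9.81 and 7.49 CPM with tau, against 3.70, 3.63 and 2.62 CPM without tau. In Trem2+/+ cells it was at 2.82, 2.19 and 2.67 CPM with tau, against 6.03, 5.50 and 8.17 CPM without tau. Without MK-2206, every R47H/+ library with tau lay above every R47H/+ library without it, and every Trem2+/+ library with tau lay below every Trem2+/+ library without it. The R47H/+ libraries with tau overlapped the Trem2+/+ libraries without tau, and the remaining 4 groups overlapped one another as a low set, R47H/+ without tau, both MK-2206 groups and Trem2+/+ with tau.

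As a description, the fitted log2 fold change of Dusp5 with tau was 1.39 (SE 0.19) in R47H/+ cells and -1.35 (SE 0.20) in Trem2+/+ cells. Their difference of 2.74 (SE 0.28) was the 31st largest positive value of 13267 genes. Without both length-shifted libraries, which were the highest of their groups for Dusp5, the difference was 2.45. R47H/+ cells with MK-2206 and tau were 1.41 lower on the log2 scale than R47H/+ cells with tau, again with no test. Within the MK-2206 groups, which were not used to select the gene, tau was tested: the log2 fold change was 0.16 (95% interval -0.27 to 0.59), with an adjusted p of 0.633. Here and below, adjusted p-values come from edgeR's quasi-likelihood test and are adjusted by the Benjamini-Hochberg method across the 13267 genes, with 0.05 as threshold, and fold changes are fitted log2 values of the first group named against the second.

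Dusp1 (chr17:26505590-26508519, minus strand) encodes the first described nuclear MAP kinase phosphatase, an early response gene that acts on p38, JNK and ERK and restrains cytokine production in macrophages. It rose with tau in R47H/+ cells and fell with tau in Trem2+/+ cells. R47H/+ cells had 10.5, 16.4 and 15.8 CPM with MK-2206 and tau, against 14.3, 13.3 and 13.2 CPM with MK-2206. They had 27.1, 26.6 and 28.0 CPM with tau, against 10.1, 9.24 and 8.77 CPM without tau or MK-2206. Trem2+/+ cells had 11.6, 10.4 and 11.4 CPM with tau, against 16.9, 15.1 and 13.7 CPM without tau. R47H/+ cells with tau stood above all 15 other libraries, and R47H/+ cells without tau were the lowest group, just below Trem2+/+ cells with tau. The 2 MK-2206 groups and Trem2+/+ cells without tau lay between them and overlapped, and 1 library with MK-2206 and tau lay within the range of Trem2+/+ cells with tau.

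The tau response of Dusp1 in R47H/+ cells was 1.54 (SE 0.15, a 2.90-fold rise, adjusted p = 9.57e-07), and its genotype difference with tau present was 1.29 (adjusted p = 4.21e-05). Without tau, Dusp1 fell by 0.70 in R47H/+ cells relative to Trem2+/+ cells (adjusted p = 0.00372). The tau response in Trem2+/+ cells was small, -0.46 (adjusted p = 0.0303), and its call ended without Trem2+/+ replicate 1 or any 1 of the 3 Trem2+/+ libraries with tau (highest adjusted p 0.108). With tau, Dusp1 was lower in R47H/+ cells given MK-2206 than in those without it, by 0.94 (adjusted p = 0.00188). In cells without tau the difference with MK-2206 was 0.53 and missed the threshold (unadjusted p = 0.00244, adjusted p = 0.0764), although the groups did not overlap. The difference between these effects, the MK-2206 by tau interaction, was -1.47 (SE 0.21, adjusted p = 0.00522), and with MK-2206 the tau response was 0.07 (95% interval -0.24 to 0.38). The 0.70 fall between genotypes missed the threshold when those 6 libraries were fitted alone (adjusted p = 0.0604).

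Dusp2 (chr2:127336159-127338376, plus strand) encodes a nuclear phosphatase found mainly in activated cells of the blood lineage, which acts on ERK and p38. It rose with tau in all 3 cell conditions. R47H/+ cells had 4.07, 3.43 and 4.63 CPM with MK-2206 and tau, against 0.970, 1.35 and 1.40 CPM with MK-2206. They had 7.49, 8.95 and 8.57 CPM with tau, against 1.65, 1.75 and 1.68 CPM without tau or MK-2206. Trem2+/+ cells had 2.97, 2.49 and 3.24 CPM with tau, against 1.04, 1.19 and 2.83 CPM without tau. The groups with tau were ordered R47H/+, R47H/+ with MK-2206 and Trem2+/+ with no overlap among them, and the 3 groups without tau overlapped or lay close together. The third Trem2+/+ library, which is length-shifted, lay among the Trem2+/+ libraries with tau.

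The tau response of Dusp2 was 1.70 (SE 0.29, adjusted p = 0.000311) with MK-2206, 2.30 (SE 0.28, adjusted p = 1.06e-05) in R47H/+ cells without it, and 0.82 (SE 0.29, adjusted p = 0.0454) in Trem2+/+ cells. The Trem2+/+ value was 1.35 without both length-shifted libraries, and its call ended when any 1 of the other 5 Trem2+/+ libraries was left out (highest adjusted p 0.148). With tau present, Dusp2 was higher in R47H/+ cells than in Trem2+/+ cells by 1.52 (adjusted p = 0.00151). It was lower with MK-2206 and tau than with tau by 1.04 (adjusted p = 0.0414), a call that ended when any 1 of those 6 libraries was left out, with adjusted p between 0.0670 and 0.172. The MK-2206 by tau interaction of Dusp2 was -0.60 (adjusted p = 0.820). Its difference in tau response between the genotypes, given as a description, was 1.48, or 0.88 without both length-shifted libraries.

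**Figure D2:**
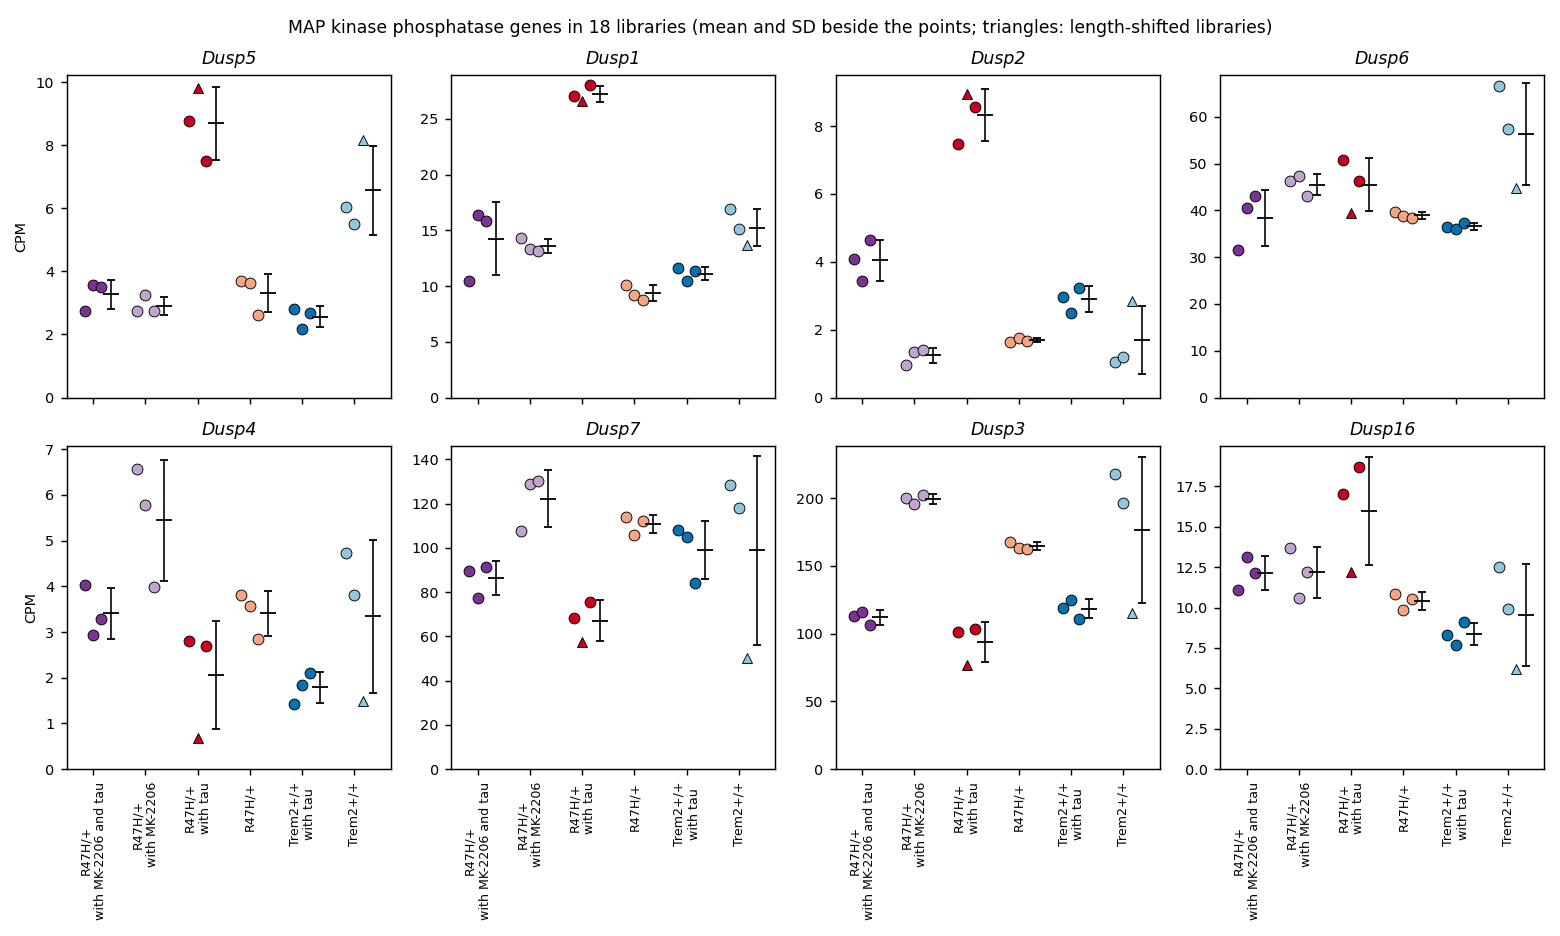
CPM of each of the 8 genes in all 18 libraries, 1 panel per gene, with the 6 groups along the horizontal axis, the mean and SD of 3 libraries beside the points, and triangles for the length-shifted libraries. The 3 libraries of R47H/+ cells with tau lie at 7.49 to 9.81 CPM for Dusp5, 26.6 to 28.0 CPM for Dusp1 and 7.49 to 8.95 CPM for Dusp2.

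Dusp4 (chr8:34807297-34819894, plus strand) encodes another nuclear phosphatase of ERK, JNK and p38, and it did not share this pattern. R47H/+ cells had 4.02, 2.93 and 3.28 CPM with MK-2206 and tau, against 6.56, 5.78 and 3.99 CPM with MK-2206. They had 2.80, 0.689 and 2.69 CPM with tau, against 3.81, 3.57 and 2.85 CPM without tau or MK-2206. Trem2+/+ cells had 1.43, 1.83 and 2.10 CPM with tau, against 4.73, 3.81 and 1.48 CPM without tau. The length-shifted library was the lowest of its group in both affected groups, and of the 3 pairs with and without tau, that in R47H/+ cells without MK-2206 did not overlap, by a narrow gap. No comparison of Dusp4 passed the test: its tau values were -0.67, -0.73 and -0.92 in R47H/+ cells with MK-2206, R47H/+ cells and Trem2+/+ cells. Without the length-shifted Trem2+/+ replicate 3 the Trem2+/+ value was -1.29 and passed (adjusted p = 0.00845), and without both such libraries the R47H/+ value was -0.33.

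Dusp6 and Dusp7 encode cytoplasmic phosphatases that act on ERK, and Dusp6 is a classic product of ERK feedback. Dusp6 (chr10:99263231-99267489, plus strand) fell with tau in Trem2+/+ cells and was lower in R47H/+ than in Trem2+/+ cells without tau. It had 31.6, 40.5 and 43.1 CPM in R47H/+ cells with MK-2206 and tau, against 46.2, 47.3 and 43.1 CPM with MK-2206. It had 50.7, 39.4 and 46.2 CPM in R47H/+ cells with tau, against 39.8, 38.9 and 38.3 CPM without. Trem2+/+ cells had 36.5, 35.9 and 37.3 CPM with tau, against 66.6, 57.5 and 44.8 CPM without tau. Trem2+/+ cells without tau were thus the high group, with a wide spread, and the other 5 groups overlapped or lay close together. The tau response was -0.62 in Trem2+/+ cells (adjusted p = 0.00379) and 0.22 in R47H/+ cells (adjusted p = 0.279). The genotype difference without tau was -0.53 (adjusted p = 0.0186). That call ended without Trem2+/+ replicate 1 or any 1 of the 3 R47H/+ libraries (highest adjusted p 0.0671), and both calls ended when only the compared groups were fitted (adjusted p = 0.155 for genotype and 0.0766 for tau).

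Dusp7 (chr9:106368632-106375724, plus strand) fell with tau in R47H/+ cells. It had 68.5, 57.3 and 75.5 CPM in R47H/+ cells with tau, against 114, 106 and 112 CPM without, a change of -0.72 (adjusted p = 0.0356). With MK-2206 it averaged 86.2 ± 7.68 CPM with tau and 122 ± 12.8 CPM without (SD, n = 3 each), a difference of -0.50 that missed the threshold (adjusted p = 0.149). In Trem2+/+ cells it had 108, 105 and 84.0 CPM with tau, against 128, 118 and 50.1 CPM without tau, and the fitted change was 0.00. The last of these Trem2+/+ values comes from the length-shifted replicate 3, without which the change was -0.35 and passed (adjusted p = 0.0445). The R47H/+ call ended when any 1 of the 6 libraries other than R47H/+ with tau replicate 3 was left out (highest adjusted p 0.129).

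Dusp16 (chr6:134715468-134792625, minus strand) encodes a phosphatase that prefers JNK and p38. It rose with tau in R47H/+ cells, which had 17.0, 12.2 and 18.7 CPM with tau against 10.9, 9.82 and 10.6 CPM without. That response was 0.62 (adjusted p = 0.0354), and its call ended without any 1 of the 6 libraries other than R47H/+ with tau replicate 2 (highest adjusted p 0.129). With tau present, Dusp16 was higher in R47H/+ cells than in Trem2+/+ cells, at 8.32, 7.68 and 9.09 CPM, by 0.93 (adjusted p = 0.00897). With MK-2206 the levels overlapped, at 11.1, 13.2 and 12.1 CPM with tau and 13.7, 10.6 and 12.2 CPM without (difference -0.01, 95% interval -0.44 to 0.43). Trem2+/+ cells without tau had 12.5, 9.90 and 6.21 CPM, the last in the length-shifted library.

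Dusp3 (chr11:101971143-101987013, minus strand) encodes a small atypical phosphatase without the MAP kinase binding domain of the others, which acts on ERK and JNK. It fell with tau in all 3 cell conditions. R47H/+ cells had 113, 116 and 106 CPM with MK-2206 and tau, against 200, 196 and 202 CPM with MK-2206, a change of -0.83 (SE 0.17, adjusted p = 0.00178). They had 101, 76.6 and 103 CPM with tau, against 168, 164 and 162 CPM without tau or MK-2206, a change of -0.82 (SE 0.17, adjusted p = 0.00219). Trem2+/+ cells had 119, 125 and 111 CPM with tau, against 218, 196 and 115 CPM without tau, a change of -0.58 (SE 0.17, adjusted p = 0.0214). The groups did not overlap in R47H/+ cells with or without MK-2206, and in Trem2+/+ cells they overlapped through the length-shifted replicate 3. The Trem2+/+ call ended without Trem2+/+ replicate 1 or 2 or Trem2+/+ with tau replicate 1 or 3 (highest adjusted p 0.0834), and without both length-shifted libraries its value was -0.82 (adjusted p = 1.2e-09). Without Trem2+/+ replicate 3, Dusp3 was also lower in R47H/+ than in Trem2+/+ cells without tau, by 0.35 (adjusted p = 0.0287), against -0.10 with it. A pair of genes on the other strand overlap Dusp3, with 45 counts in all 18 libraries together, and 1 overlaps Dusp16, with 3 counts. Whether counting used strand is not given in the sources used here.

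**Figure D3:**
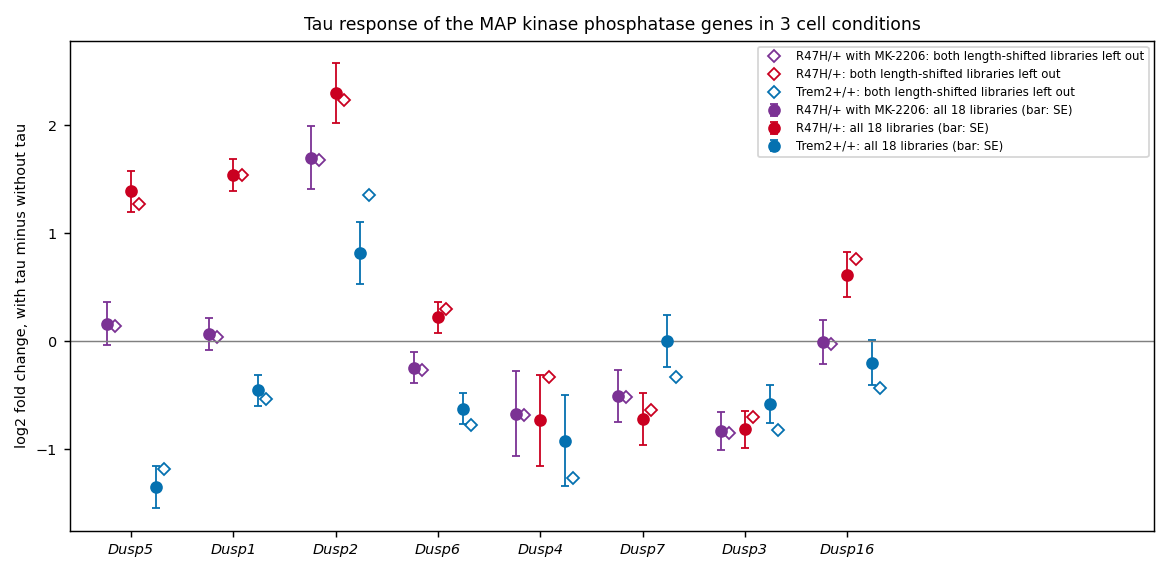
Fitted log2 fold change with tau minus without tau for each of the 8 genes in R47H/+ cells with MK-2206, R47H/+ cells and Trem2+/+ cells; filled points with SE bars use all 18 libraries and open diamonds leave out both length-shifted libraries. Dusp5 and Dusp1 lie above 0 in R47H/+ cells (1.39 and 1.54), below 0 in Trem2+/+ cells (-1.35 and -0.46) and near 0 with MK-2206 (0.16 and 0.07), while Dusp3 lies below 0 in all 3.

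Counted over the chosen members, tau changed genes in both directions in all 3 cell conditions. These members were chosen with results of these data known and are not the whole family. Dusp8, Dusp9 and Dusp10 were also tested but are counted below with the other dual-specificity phosphatases. In R47H/+ cells 5 of the 7 members other than Dusp5 passed, with Dusp1, Dusp2 and Dusp16 higher and Dusp3 and Dusp7 lower, beside 27.6% of all tested genes. In Trem2+/+ cells with tau 4 of 7 passed, Dusp2 higher and Dusp1, Dusp3 and Dusp6 lower, beside 26.5% of all tested genes. In R47H/+ cells with MK-2206 and tau against MK-2206, 2 of 8 passed, Dusp2 higher and Dusp3 lower, beside 25.6%, a share near the background. These counts were 6, 7 and 5 without both length-shifted libraries, where 42.8%, 41.4% and 48% of all genes were called. The medians of the members were 0.22 in R47H/+ cells and -0.46 in Trem2+/+ cells over 7 members and -0.13 over 8 members with MK-2206, against 0.00, -0.04 and -0.03 over all genes tested.

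For genotype, 3 of 7 members were higher in R47H/+ cells with tau than in Trem2+/+ cells with tau (Dusp1, Dusp2 and Dusp16) and none was lower, beside 9.5% of all tested genes. Without tau, 2 of 7 were lower in R47H/+ cells (Dusp1 and Dusp6) and none was higher, beside 15.1%. With both length-shifted libraries omitted, the counts were 6 and 3, beside 23.3% and 28.9% of all genes. For MK-2206, 2 of 7 were lower with MK-2206 and tau than with tau (Dusp1 and Dusp2), beside 3.04%. Without tau, 0 of 7 passed by edgeR's quasi-likelihood test, beside 2.55%, and 1 (Dusp1) had an unadjusted p under 0.05. By DESeq2, 1 (Dusp1) passed, beside 4.39%. With both omitted, the counts were 4 with tau, beside 12% of all genes, and 3 without, beside 13.9%. The MK-2206 by tau interaction passed for 1 of 7 (Dusp1), beside 0.377%, and for 3 of 7 without both length-shifted libraries, beside 4.94%. The comparisons share libraries with one another, so their counts are not independent.

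Across the 18 libraries, which share their group structure and the 2 length-shifted libraries, the 8 genes did not vary as one. Pearson's r of log2 CPM was 0.82 between Dusp3 and Dusp7, 0.79 between Dusp1 and Dusp5, and 0.77 between Dusp3 and Dusp4. Dusp2 ran against Dusp3 (r = -0.95) and Dusp7 (r = -0.77). Dusp1 and Dusp4, which encode related nuclear phosphatases, had an r of -0.24. Among 9863 other genes whose log2 CPM averaged 1 or more, those most like Dusp5 over the 18 libraries were Bcl2l1 (r = 0.92), an inhibitor of cell death, the adaptor Stap1 (0.91), Id2 (0.91), an inhibitor of helix-loop-helix transcription factors, Tes (0.86) and Qpct (0.86). The closest to Dusp1 were Zfp36 (0.87), which encodes an mRNA-destabilising protein, and Ets2 (0.84), and the closest to Dusp2 were the chemokine Ccl8 and Hat1 (0.96 each). Dusp3 was nearest to Zdhhc8 and Daglb (0.98 each), Dusp4 to S100pbp and Kdm3a (0.94 each), Dusp6 to Ptpn12 (0.82) and Lcp1 (0.81), Dusp7 to Rnf44 (0.98) and Zfp316 (0.97), and Dusp16 to Smc5 and Btg2 (0.82 each).

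Genes that are transcribed on ERK signalling, the sprouty and spred inhibitors, Etv, Egr, Fos, Myc, Ier3, Phlda1 and Ccnd1, were compared with the phosphatases, with 14 of 17 tested. In R47H/+ cells against Trem2+/+ cells without tau, 0 were higher and 5 lower, beside 15.1% of all genes called in either direction, with a median of -0.54 against -0.02 over all genes. Fos, which encodes an AP-1 subunit, averaged 21.2 CPM in R47H/+ cells and 57.4 CPM in Trem2+/+ cells, and the transcription factor gene Egr2 averaged 11.3 and 55.9 CPM in the same order (log2 fold changes -1.44 and -2.31, adjusted p = 2.56e-07 and 2.24e-07). With tau in Trem2+/+ cells 1 was higher and 9 lower, beside 26.5% of all genes, with a median of -1.13. With tau in R47H/+ cells 3 were higher and 2 lower, close to the 27.6% of all genes, with a median of -0.04. Egr1 was higher in R47H/+ cells with tau than in Trem2+/+ cells with tau by 1.34 (adjusted p = 0.000174), in a comparison with 2 higher and 1 lower (median 0.22) beside 9.5% of all genes. Its mean was 37.1 CPM in R47H/+ cells with tau and 14.6 CPM in Trem2+/+ cells with tau. In R47H/+ cells without tau it was 44.7 CPM, so the mean was not higher with tau in R47H/+ cells.

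With MK-2206 and tau against tau, 0 of these 14 were higher and 4 lower, beside 3.04% of all genes, with a median of -0.76 against -0.01 over all genes. Fos averaged 12.4 CPM with MK-2206 and tau and 27.5 CPM with tau, a change of -1.16 (adjusted p = 7.09e-05), and Egr1 changed by -1.44 (adjusted p = 0.000258). By DESeq2, 7 were lower in that comparison, beside 5.68% of all genes called in either direction. With MK-2206 against neither agent 1 was higher and 3 lower (median -0.19), beside 2.55%. The higher one was Egr2, at 28.4 CPM with MK-2206 and 11.3 CPM with neither (change 1.33, adjusted p = 0.000709). Egr1 was among the lower ones, at 21.8 and 44.7 CPM in the same order (change -1.04, adjusted p = 0.00374). With MK-2206 and tau against MK-2206, 3 were higher and 6 lower (median -0.37), beside 25.6%. The interaction passed for 2, beside 0.377%, both negative (median -0.45): Fos at -1.22 (adjusted p = 0.0044), in the same direction as Dusp1, and Egr2 at -1.48 (adjusted p = 0.0227). With tau, Egr2 averaged 6.29 CPM with MK-2206 and 6.99 CPM without it. The Egr2 call ended when any 1 of 8 of the 12 R47H/+ libraries was left out, with adjusted p up to 0.0918. Without both length-shifted libraries, in the order of the 8 comparisons just given, the lower counts were 7, 9, 2, 1, 8, 4, 8 and 3 and the higher counts 1, 2, 4, 6, 0, 2, 3 and 1. The shares of all genes called in those fits were also larger, at 28.9%, 41.4%, 42.8%, 23.3%, 12%, 13.9%, 48% and 4.94%.

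**Figure D4:**
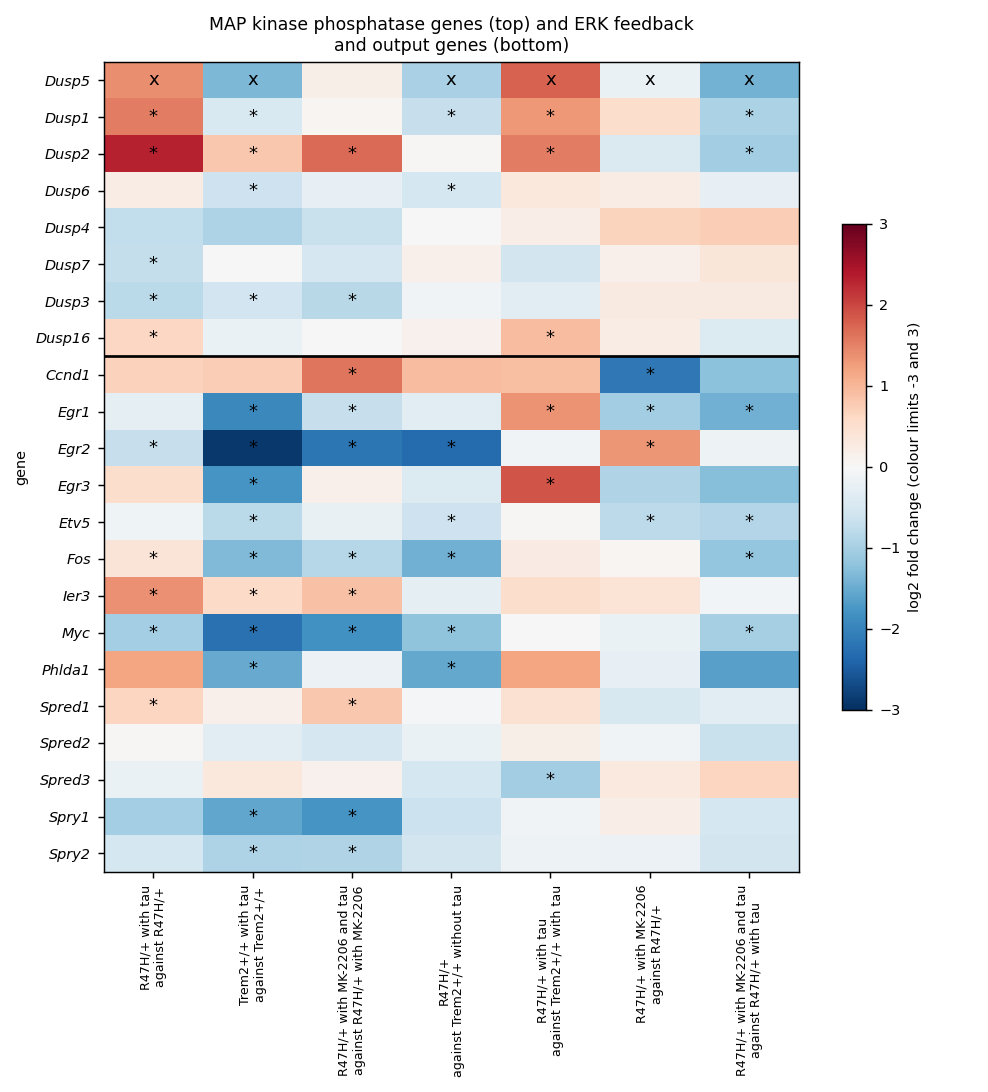
Fitted log2 fold changes (colour, red higher and blue lower in the first group named) of the 8 phosphatase genes, above the line, and of 14 ERK feedback and output genes, below it, in 7 comparisons. Asterisks mark an adjusted p under 0.05 and crosses mark Dusp5 values given with no test; Fos is at -1.16 and Dusp1 at -0.94 with MK-2206 and tau against tau.

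The remaining pathway lists had medians between -0.30 and 0.21 in the 8 comparisons against -0.04 to 0.01 over all genes. Of 12 tested other dual-specificity phosphatases, 2 were higher and 2 lower with tau in R47H/+ cells, 1 higher and 2 lower in Trem2+/+ cells and 1 higher and 0 lower with MK-2206, near or below the 27.6%, 26.5% and 25.6% of all genes called. Dusp28, which encodes an atypical phosphatase, was among the higher ones in each. It averaged 62.3 ± 1.87 CPM with MK-2206 and tau against 11.3 ± 0.917 CPM with MK-2206, 55.9 ± 8.96 CPM in R47H/+ cells with tau against 16.3 ± 1.03 CPM without, and 32.6 ± 2.56 CPM in Trem2+/+ cells with tau against 8.33 ± 1.67 CPM without (SD, n = 3 each). The changes were 2.46, 1.78 and 1.97 (adjusted p = 5.14e-09, 1.23e-07 and 3.3e-08). Between genotypes 2 of this list were higher with tau, beside 9.5% of all genes called, and 1 was higher and 2 lower without, beside 15.1%. For MK-2206 without tau, MK-2206 with tau and the interaction, 0 passed by edgeR's quasi-likelihood test, beside 2.55%, 3.04% and 0.377% of all genes.

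In the next 5 lists the counts for tau stand beside 25.6% of all genes called with MK-2206, 27.6% in R47H/+ cells and 26.5% in Trem2+/+ cells. Of 7 tested MAP kinases, 2 were higher and 0 lower with tau in cells with MK-2206, 1 and 0 in R47H/+ cells and 2 and 1 in Trem2+/+ cells. Mapk9, which encodes a JNK, was among the higher ones each time, with changes of 0.82, 0.54 and 0.69 (adjusted p = 2.84e-06, 0.00023 and 2.04e-05). Of 7 MAP kinase kinases 1 was higher in each tau comparison, and it was Map2k1, which encodes the ERK kinase MEK1, with changes of 0.57, 0.56 and 0.56 (adjusted p = 9.69e-05, 0.000125 and 0.000121); Map2k3 was lower in Trem2+/+ cells. Of 17 RAS, RAF and MAP3 kinase genes, 1 was higher and 2 lower with tau in cells with MK-2206, 0 and 3 in R47H/+ cells and 1 and 1 in Trem2+/+ cells, all below those shares. Of 12 MAP kinase-activated kinases and targets the counts were 3 and 1, 2 and 1, and 2 and 0 in the same order. Zfp36 was among them in R47H/+ cells, at 181 ± 4.02 CPM with tau and 116 ± 9.84 CPM without (change 0.65, adjusted p = 1.84e-05). Of 7 other phosphatases that act on MAP kinases, 1 was higher and 1 lower, 3 and 0, and 1 and 0, and Ptpn7, a tyrosine phosphatase of ERK and p38, was higher in all 3 (0.85, 0.86 and 0.41, adjusted p = 4.38e-05, 3.84e-05 and 0.0165). The Trem2+/+ call of Ptpn7 ended without Trem2+/+ replicate 3 or Trem2+/+ with tau replicate 1.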

How the data were processed

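The deposited table holds whole-number counts per gene, and the submitters' processing notes name STAR, featureCounts, DESeq2 and the builds GRCm38 and mm10; versions, strand setting and trimming are not given in the sources used here. All 18 columns were matched to samples by the descriptions in the labels, and totals of 16288531 to 20686299 counts set the precision. The 8 members and the 7 pathway and 6 marker lists were chosen with earlier results of these data known. Counts were filtered with filterByExpr (13267 of 54532 genes kept), scaled by TMM and fitted in edgeR 4.0.16 (R 4.3.3) as 6 groups in 1 quasi-likelihood model with 12 residual degrees of freedom. The MK-2206 by tau interaction and the pairwise comparisons, 8 in all, were tested, with Benjamini-Hochberg adjustment over all genes at 0.05. The SE is the absolute log2 fold change over the root of F, and intervals are 95%. Neighbours in pattern and correlations used log2 CPM with a prior count of 2. An exact permutation test of 3 against 3 libraries cannot go below p = 0.1 and was not used. The genes named are the 8 members, up to 3 called genes with the smallest p per pathway list and comparison, the genes nearest in pattern (5 for Dusp5, 2 for each other member), Trem2 and defining markers; further markers were named after their values were seen. Results were recomputed by DESeq2 1.42.0, with RLE scaling, with a gene-length offset (lowess span 0.3), with a replicate block, without the count filter, on only the groups compared, without each library and without both length-shifted libraries; for pathway genes these were added after their values were seen. The model was checked on simulated counts. Promoter windows came from RefSeq (GRCm38.p6), with 7 of 8 members matched.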

Additional observations from a re-analysis of the deposited data

Results flagged for a closer look

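Without MK-2206, the tau response of Dusp5 was in opposite directions in the genotypes, higher with tau in all R47H/+ libraries and lower in all Trem2+/+ libraries. The difference was 2.74 on the log2 scale. This difference was used to select the gene and was not tested. Dusp1 differed in the same way by 1.99, also not tested. The tau response of Dusp1 in R47H/+ cells differed with MK-2206 by -1.47 (edgeR's quasi-likelihood test, adjusted p = 0.00522). Among the ERK output genes, the same interaction was -1.22 for Fos (adjusted p = 0.0044) and -1.48 for Egr2 (adjusted p = 0.0227).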

How the results depend on the processing

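Depth limits Dusp2, Dusp4 and Dusp5 most, since they had the fewest counts a library. Most member results kept their direction and their side of the threshold under RLE scaling, without the count filter, with a replicate block, with a gene-length offset and by DESeq2; the cause of each exception was not tested. Members called in R47H/+ against Trem2+/+ cells without tau (2) were 1 without the count filter or with the offset, 0 with the compared groups fitted alone, and 1 to 3 with each library left out. In that order, 6.72%, 19.3%, 3.81% and 9.52% to 21.9% of all genes were called. For tau in Trem2+/+ cells (4) there were 2 without the count filter, 7 without both length-shifted libraries, 0 with the groups alone and 1 to 6 with each library left out. The shares of all genes called were 12%, 41.4%, 10.5% and 19.4% to 30.9% in the same order. For tau in R47H/+ cells (5), leaving out each library gave 3 to 4, beside 19.8% to 24.8% of all genes. Without both length-shifted libraries, 6 were called between genotypes with tau (3 with all libraries), 3 for MK-2206 without tau (0), 4 for MK-2206 with tau (2), 5 for tau with MK-2206 (2) and 3 for the interaction (1), and the Dusp5 difference in tau response was 2.45. Fitting the groups alone called 4 members for MK-2206 without tau, beside 18.1% of all genes. It called 4 for tau with MK-2206, beside 50.2% of all genes, a share near the background. DESeq2 called 1 for MK-2206 without tau, beside 4.39%. Leaving out each library called 1 in every case for MK-2206 with tau, beside 1.11% to 1.8%. Values that changed sign were small and missed the threshold with all libraries. Between genotypes without tau, Dusp4 was -0.32, Dusp7 -0.16 and Dusp16 -0.10 without both length-shifted libraries, and Dusp2 was -0.0021 with the groups alone. With each library left out there, Dusp2 ranged over -0.21 to 0.57, Dusp3 over -0.35 to 0.076, Dusp4 over -0.34 to 0.33, Dusp7 over -0.18 to 0.39 and Dusp16 over -0.13 to 0.36. For tau in Trem2+/+ cells, Dusp7 ranged over -0.35 to 0.23 and Dusp16 over -0.45 to 0.039, and between genotypes with tau Dusp4 ranged over -0.078 to 0.62. For tau with MK-2206, Dusp16 was 0.0045 with RLE scaling, 0.042 with the offset, 0.0068 with the groups alone and 0.0043 by DESeq2, and with each library left out it ranged over -0.096 to 0.088 and Dusp1 over -0.045 to 0.25. For the interaction, Dusp4 was -0.35 without both length-shifted libraries and ranged over -0.35 to 0.34, and Dusp3 over -0.14 to 0.056. The labels do not say whether same-numbered libraries were paired. Deviations of same-numbered libraries from their group means had correlations of -0.14 to 0.20. Such deviations are from means of 3 libraries and carry the length shift, so they cannot settle pairing. With the replicate block 3 members rather than 4 were called for tau in Trem2+/+ cells, beside 24% of all genes. The other member counts were the same. With this block Dusp7 was 0.017 for tau in Trem2+/+ cells and Dusp16 0.0058 for tau with MK-2206. Over all genes, the counts called without both length-shifted libraries were 3907 (1997 with all) and 5589 (3519) for genotype without tau and tau in Trem2+/+ cells, 5773 (3667) for tau in R47H/+ cells, 3141 (1260) for genotype with tau, 1878 (338) for MK-2206, 1620 (403) for MK-2206 with tau, 6475 (3393) for tau with MK-2206 and 667 (50) for the interaction. With the groups alone they were 474 for genotype without tau, 1311 for tau in Trem2+/+ cells, 2236 for MK-2206, 220 for MK-2206 with tau, 6225 for tau with MK-2206 and 187 for the interaction. For MK-2206, MK-2206 with tau and the interaction, the offset gave 568, 686 and 135 and DESeq2 583, 753 and 220; the block gave 249 and 21 for the last pair, and no count filter 236 for MK-2206 with tau. Leaving out each library gave 1295 to 2975 for genotype without tau, 629 to 1041 with tau, 138 to 198 for MK-2206, 150 to 245 for MK-2206 with tau and 9 to 43 for the interaction.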
